A study of Mus musculus with 4 samples.

Results

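Among the genes listed for these livers, 1558 are small nucleolar RNAs (snoRNAs) or small Cajal body RNAs (scaRNAs), and 94 of them reached a mean of at least 1 FPKM (fragments per kilobase of gene length, scaled to library size) over the 4 libraries. Those 94, described here, comprised 89 of 1507 snoRNAs and 5 of 51 scaRNAs. They were chosen by their mean level in these same libraries, so that level is a description and carries no test. Just inside the limit lay Gm24313 at a mean of 1.002 FPKM, Gm25117 at 1.07 FPKM and Snord8 at 1.07 FPKM, and just outside lay Gm25965 at 0.9996 FPKM, Snord59a at 0.994 FPKM and Gm22486 at 0.986 FPKM. Of the 1558, 1340 had 0 reads in all 4 libraries. The 94 lie on 20 chromosomes of the mouse genome, and 55 carry predicted-gene (Gm) symbols.

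The RNA came from livers of adult female mice of strain C57BL/6 x 129S4/SvJae. In the knockout group Utx had been deleted in the liver, and the wild-type (WT) group was matched for age and sex. Every mouse in both groups had been fasted for 16 h and injected with 300 mg/kg acetaminophen (APAP), so the drug's own effect was not measured. Each group held 2 libraries, each a pool of liver RNA from 2 mice. The labels name neither the Cre driver nor the exact age nor the time after the dose.

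SnoRNAs guide chemical modification of other RNAs. Box C/D RNAs pair with ribosomal RNA and direct 2′-O-methylation by fibrillarin, and box H/ACA RNAs direct conversion of uridine to pseudouridine by dyskerin. ScaRNAs do the same for spliceosomal small nuclear RNAs in Cajal bodies. In mammals most are released from introns of host genes, many of which encode ribosomal proteins or translation factors, and the finished RNAs carry no poly(A) tail.

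The sequences below, from GENCODE M21 transcripts on build GRCm38, are those of the most abundant of the small RNAs, of the 3 that passed the test and of others whose values are described. Each is written 5′ to 3′ with T for U. Capitals mark the letters searched for: TGATG, the core of box C, within the first 20 bases and CTGA, box D, within the last 15 bases, or ACA, the H/ACA end box, within the last 8 bases of an RNA of at least 120 bases. Snord104 at chr11:106500993-106501062 on the plus strand, Gm24494 at chr3:153911610-153911690 on the minus strand, Snord32a at chr7:45127382-45127464 on the minus strand, Snord34 at chr7:45126601-45126670 on the minus strand, Snord35a at chr7:45126346-45126435 on the minus strand and Gm22192 at chr2:32221970-32222054 on the plus strand carry the C and D letters. Snora57 at chr19:8888538-8888685 on the minus strand, Snora31 at chr14:75847905-75848034 on the plus strand, Gm26397 at chr8:126944847-126944980 on the minus strand and Gm25492 at chr5:135053988-135054116 on the minus strand carry the H/ACA letters.
Snord104: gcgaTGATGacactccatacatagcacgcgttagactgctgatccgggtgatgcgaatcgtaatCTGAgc
Gm24494: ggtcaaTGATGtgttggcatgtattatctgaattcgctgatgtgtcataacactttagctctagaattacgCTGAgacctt
Snord32a: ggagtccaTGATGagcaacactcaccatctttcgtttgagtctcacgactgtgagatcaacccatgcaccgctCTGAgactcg
Snord34: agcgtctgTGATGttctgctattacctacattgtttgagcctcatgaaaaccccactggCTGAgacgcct
Snord35a: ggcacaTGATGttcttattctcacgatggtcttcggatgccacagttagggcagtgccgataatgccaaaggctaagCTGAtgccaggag
Gm22192: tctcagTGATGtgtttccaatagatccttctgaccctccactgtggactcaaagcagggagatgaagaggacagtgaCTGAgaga
Snora57: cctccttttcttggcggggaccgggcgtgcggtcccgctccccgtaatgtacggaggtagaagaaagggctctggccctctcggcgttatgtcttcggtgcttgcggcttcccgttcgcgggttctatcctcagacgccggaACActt
Snora31: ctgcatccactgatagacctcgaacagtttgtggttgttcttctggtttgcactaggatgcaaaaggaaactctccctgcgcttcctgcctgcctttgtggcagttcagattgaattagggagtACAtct
Gm26397: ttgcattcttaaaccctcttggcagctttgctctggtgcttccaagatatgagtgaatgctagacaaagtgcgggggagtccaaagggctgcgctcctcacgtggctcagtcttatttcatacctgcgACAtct
Gm25492: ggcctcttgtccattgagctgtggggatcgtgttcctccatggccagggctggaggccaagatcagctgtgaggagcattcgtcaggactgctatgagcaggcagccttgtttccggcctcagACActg

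By these letters 43 of the 94 were of the C/D kind, with a median length of 77 bases (64 to 144), and 39 were of the H/ACA kind, with a median of 132 bases (121 to 246), a length that the minimum of 120 bases in the search itself sets in part. The remaining 12 fitted neither description. Among the 25 whose deposited description names them as C/D box RNAs, 23 had TGATG and 23 had CTGA in those windows, and all 11 described as H/ACA RNAs had ACA. On the RNA strand alone, with the motifs free to overlap one another, TGATG was found in 45 of the 94 (47.9%) against 24.6% of all 1558. CTGA was found in 47 (50%) against 30.9%, and ACA, at any length, in 44 (46.8%) against 47.6%. The rule picks by level and not by sequence, and a match describes the letters only.

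Depth sets how much can be read from each RNA. The listed reads of the 4 libraries came to between 16330451 and 17804730, and the 94 small RNAs took 776 and 1072 of them in wild-type pools 1 and 2 and 714 and 737 in knockout pools 1 and 2. Their mean read numbers per library ran from 1.5 to 84.0 with a median of 6.0. Only 6 had a mean of 20 reads or more, only Snord104 had 50 or more, and 15 had 0 reads in at least 1 library. The libraries were poly(A)-selected and size-selected for fragments of 370 to 420 bp, while the RNAs are 64 to 246 bases long. A read counted for an intronic small RNA and a read from the unspliced host transcript around it cannot be told apart in these values, nor can fewer cells of a type and less RNA per cell.

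Whether an RNA was counted at all went with its place in the host gene. A host is a gene of another biotype that spans the whole small RNA. Among all listed snoRNAs and scaRNAs inside a host of at least 1 FPKM on the same strand, 141 of 213 that lie wholly in an intron had at least 1 read (66.2%), against 8 of 131 that overlap an annotated exon (6.11%). The median host level was 9.77 FPKM for the first and 18.4 FPKM for the second, and the median RNA length was 130 and 89 bases. The part of length in this split was not tested. Of the 131, 102 (77.9%) overlap an exon of a retained-intron transcript, and 91 (69.5%) overlap exons of that kind alone. In 22 hosts that hold both kinds, 29 of 33 intronic RNAs had reads, 896 in all, and 3 of 33 exon-overlapping RNAs had reads, 25 in all. This is a description of annotation and counts with no test, and the sources used here do not say how the authors counted fragments shared by 2 genes.

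**Figure D1:**
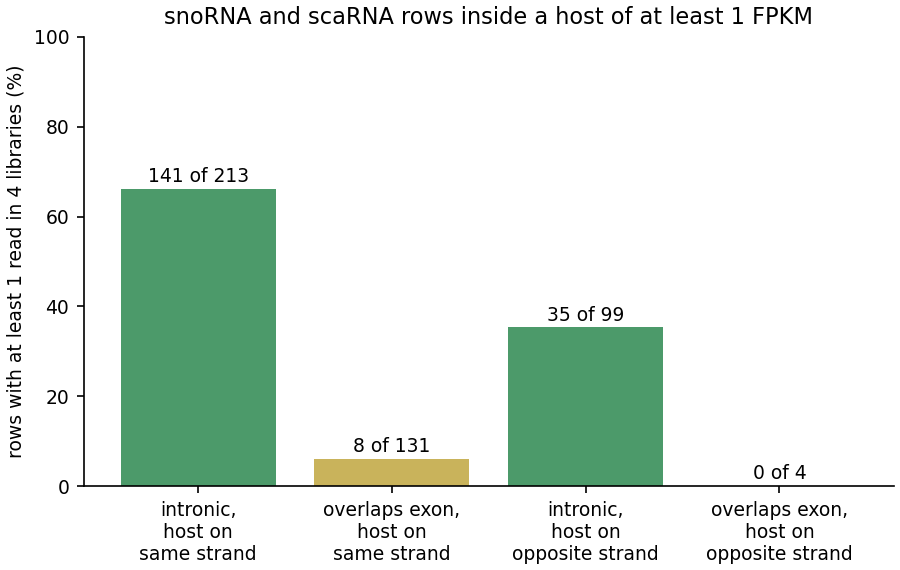
The bars give the percentage of listed snoRNAs and scaRNAs with at least 1 read in the 4 libraries, for those inside a host of at least 1 FPKM, split by position and by host strand, with the numbers above each bar. Intronic RNAs on the host's strand reached 66.2% (141 of 213), exon-overlapping RNAs 6.11% (8 of 131) and intronic RNAs on the opposite strand 35.4% (35 of 99).

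Single hosts show the same split. Gas5 and Snhg1 are noncoding genes known mainly for the snoRNAs in their introns. All 10 snoRNAs of Gas5 overlap an annotated exon and had 0 reads although the host stood at 11.7 FPKM, and the same held for all 8 of Snhg1 at 12.1 FPKM. Hspa8, which encodes a constitutive heat shock chaperone, stood at 1551 FPKM and its 3 exon-overlapping RNAs had 0 reads. In Rpl13a, a ribosomal protein gene, intronic Snord32a, Snord34 and Snord35a had 26, 13 and 14 reads over the 4 libraries and exon-overlapping Snord33 had 0. A count of 0 allows up to 3 reads, so these RNAs are listed at 0 and their absence from liver is not shown. Snhg14, host of the imprinted clusters that are known from brain, stood at 0.117 FPKM, and all 208 of its small RNAs had 0 reads.

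Of the 94, 90 lie inside a host, 83 of them on the host's strand, and 86 are wholly intronic. Ribosomal protein genes held 25 (15 hosts), translation factor genes 8 (6 hosts), other protein-coding genes 49 (43 hosts) and noncoding genes 8 (6 hosts), each RNA counted under 1 host. Snora78, counted here under noncoding Snhg9, also lies inside a ribosomal protein gene. Snord104, Snora17, Gm23119 and Scarna17 had no host, and their nearest tested genes lay 1085 bp (Tex2), 34773 bp (Agpat2), 497 bp (Acaa2) and 728 bp (Acaa2) away. The host level had a median of 39.2 FPKM, and a small RNA stood at a median of 8.07% of its host's FPKM. Across 89 RNAs with a tested host, the mean FPKM of RNA and host had a Spearman correlation of 0.52. Those points share libraries and, for 17 hosts that hold several RNAs, a host. Snora57, on the opposite strand to Lbhd1, and Snord89 in noncoding Gm15832 stood above their tested hosts.

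Library facts that touch what follows concern Utx itself and cell markers. Kdm6a, the gene of the demethylase Utx, stood at 3.40 and 3.85 FPKM in wild type against 2.20 and 2.12 FPKM in knockout (log2 change -0.63, SE 0.13, limma adjusted p 0.0715), so its transcript was lower in both but did not pass the test. With limma voom it passed (log2 change -0.75, adjusted p 0.0327). All 9 tested neutrophil markers had a negative log2 change, and 4 of them passed the test as lower in knockout, against 3.14% of all tested genes. The summed level of the 10 listed was 121 and 185 FPKM in wild type against 40.1 and 35.9 FPKM in knockout. None of 8 hepatocyte or 8 Kupffer cell markers passed, hepatocyte markers summed to between 31685 and 44398 FPKM, and 8 lymphocyte markers summed to no more than 3.85 FPKM. Mitochondrial ribosomal RNA took 0.244% and 0.251% of reads in wild-type and 0.108% and 0.158% in knockout. The part of these differences in the results on small RNAs was not tested.

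Wild-type pool 2 stood apart for the small RNAs, though not for them alone. It held the highest value of 51 of the 94 (54.3%), against 24.8% of all 11900 tested genes. That share was 38.6% of the 70 tested hosts, 55% of 20 sense-intronic transcripts and 66.7% of 9 genes of the misc_RNA class. It was 37.5% of 40 small nuclear RNAs and 32.9% of 85 miRNA genes. In reads per 1000000 listed reads the 94 came to 46.8 (95% exact binomial interval 43.6 to 50.2) and 64.3 (60.5 to 68.3) in wild-type pools 1 and 2, and to 40.1 (37.2 to 43.2) and 45.1 (41.9 to 48.5) in knockout pools 1 and 2. Both knockout pools were below both wild-type pools, but the intervals of knockout pool 2 and wild-type pool 1 overlap, and they cover counting error only. Set against the reads of the host genes, the small RNAs came to 0.252% and 0.365% in wild type and 0.231% and 0.251% in knockout, so on that scale the closest pools were nearly level.

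**Figure D2:**
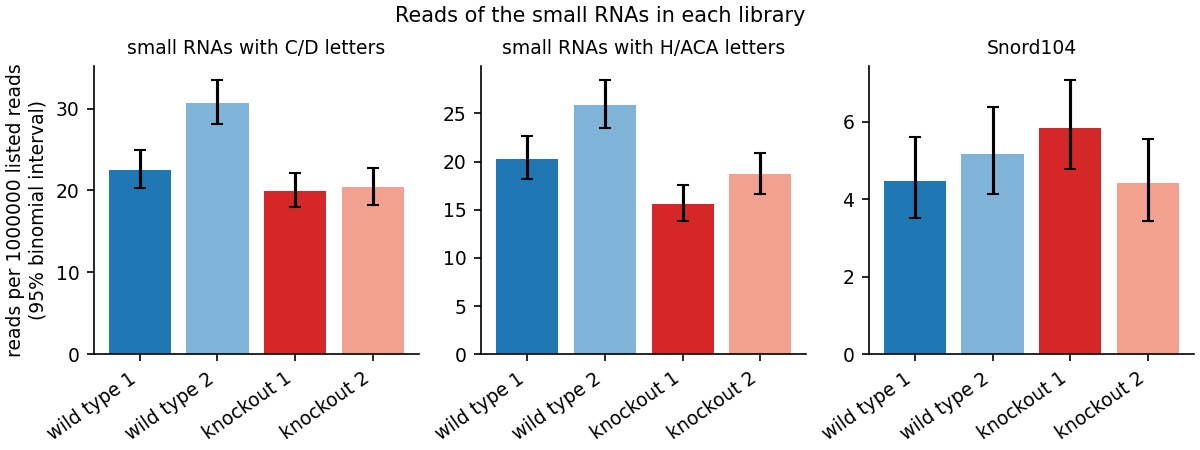
Bars give reads per 1000000 listed reads in each library, with 95% exact binomial intervals, for the 43 small RNAs with C/D letters, the 39 with H/ACA letters and Snord104, each panel on its own scale from 0. Wild-type pool 2 is the tallest bar in the first 2 panels, and the Snord104 bars have overlapping intervals.

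Small RNAs called lower in knockout were few. Snora31, Snord34 and Gm22192 passed the test, 3 of 94 (3.19%), with 0 called higher. Of the 94, 16 had a mean under 1 FPKM in 1 group, 13 of them in knockout, and so entered through the other group, Gm22192 among the 13. By the same limma test with Benjamini-Hochberg adjustment 4.74% of all tested genes were called, 3.14% lower and 1.60% higher, so the share of small RNAs called was close to the background. At an unadjusted p under 0.05 there were 17 lower and 2 higher (20.2%), against 1719 lower and 1507 higher of all 11900 tested genes (27.1%). Without knockout pool 2 the test called 3 other small RNAs, and without any other library it called 0. limma voom on recovered reads called 0 of the 94, with 3 at an unadjusted p under 0.05, and 9.11% of all genes.

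Estimated changes were more often negative than positive. The log2 change, knockout minus wild type, was negative for 67 and positive for 27 of the 94, with a median of -0.44. It was 0.01 over all tested genes, -0.07 over 70 tested hosts and -0.07 over 1290 tested genes with under 50 reads on average. That last set is not matched for depth, with a median of 19.25 reads against 6.0 for the 94, and it includes the 94 apart from Snord104. Both knockout pools were below both wild-type pools for 33 (35.1%, background 29.9%) and above for 10 (10.6%, background 31.6%). Among the tested genes under 50 reads these shares were 27.6% and 18.9%. They were 40% and 15% for small nuclear RNAs, 50% and 5% for sense-intronic transcripts and 30.6% and 5.88% for miRNA genes. The imbalance is therefore not particular to the 94. These counts and medians of the 94 include the 16 that entered through 1 group, 13 with a mean under 1 FPKM in knockout and 3 in wild type. The direction was not tested without them. The median moved to -0.28 without wild-type pool 2 and to -0.61 without wild-type pool 1, and only the first of these is a change of over 1.5 times. Medians by class were -0.56 for the 43 C/D RNAs and -0.35 for the 39 H/ACA RNAs, and moved to -0.32 without wild-type pool 2 for the first and to -0.59 without wild-type pool 1 for the second. The 12 of neither kind had a median of 0.27, which turned to -0.39 without wild-type pool 1 and moved to 0.48 without wild-type pool 2 and 0.02 without knockout pool 2, and a difference between classes was not tested.

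**Figure D3:**
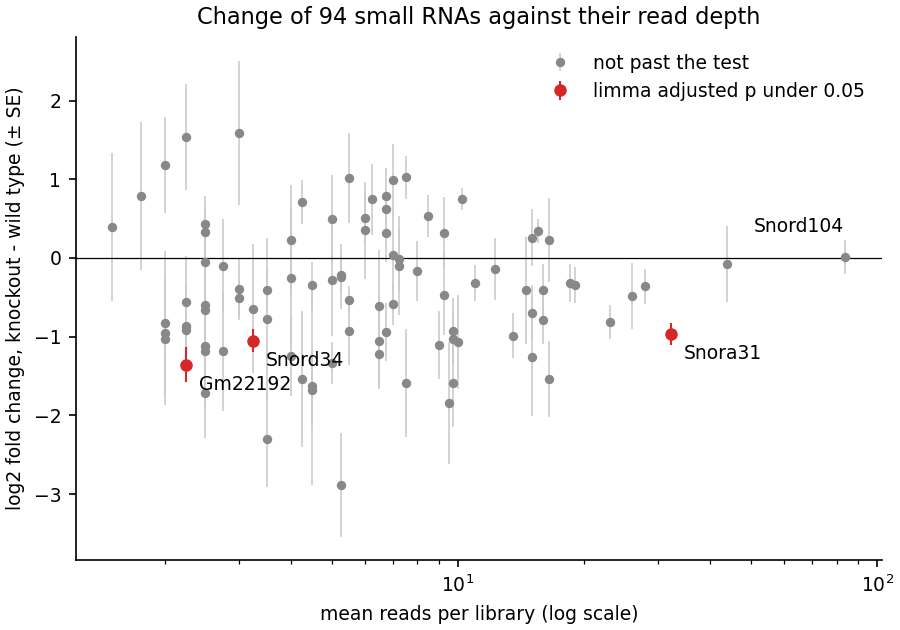
Each point is 1 of the 94 small RNAs, with mean reads per library on a log axis and the log2 change, knockout minus wild type, with its SE. Points in red passed the limma test: Snora31 with 32.2 reads on average, and Snord34 and Gm22192 with 3.25 and 2.25.

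Among the H/ACA RNAs, Snora31 was lower in knockout, on more reads than the other called RNAs. It lies in an intron of Tpt1, which encodes the translationally controlled tumour protein, and stood at 17.7 and 22.0 FPKM in wild type (39 and 45 reads) against 10.4 and 9.42 FPKM in knockout (24 and 21 reads). The 2 groups do not overlap. Group means were 19.9 ± 3.02 and 9.89 ± 0.661 FPKM (SD, n = 2 each), a log2 change of -0.97 (SE 0.15, limma adjusted p 0.0443). The ratio of reads was 0.50 (exact 95% interval 0.340 to 0.726). That interval pools the reads of each group and covers counting error only, not the spread between pools. Tpt1 itself stood at 550 and 590 FPKM against 484 and 453 FPKM (log2 change -0.28, limma adjusted p 0.274), also below in both knockout pools. The Snora31 call was lost under 7 of 13 alternatives, leaving out any library among them, with limma adjusted p between 0.0308 and 0.129.

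The remaining abundant H/ACA RNAs did not pass. Snora57 stood at 10.4 and 27.9 FPKM in wild type and 14.4 and 18.1 FPKM in knockout (log2 change -0.08, limma adjusted p 0.931), with the knockout pools between the wild-type ones. Snora20, in the chaperonin gene Tcp1, stood at 7.86 and 11.4 against 8.77 and 6.38 FPKM, and the groups overlap. Gm22270, in the ribosomal protein gene Rpl5, stood at 10.8 and 16.4 against 7.22 and 7.51 FPKM (log2 change -0.81, limma adjusted p 0.105). Its groups do not overlap, and Rpl5 had a log2 change of -0.02 (limma adjusted p 0.933). Snora17, with no host, stood at 10.8 and 7.71 against 3.82 and 6.63 FPKM (log2 change -0.79, limma adjusted p 0.183). Gm26397, in the mitochondrial import receptor gene Tomm20, went the other way at 3.09 and 3.32 against 6.28 and 5.22 FPKM (log2 change 0.75, SE 0.14, limma adjusted p 0.0568). It had the smallest adjusted p of the small RNAs above in knockout, on 10.2 reads on average, and missed the threshold in all 12 alternatives.

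Among the C/D RNAs, Snord104 was the most abundant and had a log2 change near 0. It stood at 62.5 and 78.1 FPKM in wild type and at 83.3 and 60.0 FPKM in knockout (74, 86, 104 and 72 reads), so the knockout pools enclosed the wild-type ones. The log2 change was 0.02 with a 95% interval of -0.55 to 0.58 (limma adjusted p 0.968), and Snord104 alone took 10.2% of the reads of the 94. Gm24494, in Rabggtb, which encodes a subunit of a Rab prenylating enzyme, stood at 13.9 and 33.0 against 14.5 and 15.8 FPKM (log2 change -0.48, limma adjusted p 0.495). Wild-type pool 2 alone was high. The 2 exon-overlapping RNAs of Rabggtb, Snord45b and Snord45c, had 0 reads. Gm25835, in the helicase gene Eif4a1, stood at 11.1 and 15 against 11.7 and 8.51 FPKM (log2 change -0.36, limma adjusted p 0.361), and its groups overlap. Snord58b, in the ribosomal protein gene Rpl17, stood at 17.9 and 14.5 against 8.50 and 16.8 FPKM. Knockout pool 1 was the low library, and Snord58b did not pass.

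Snord34 and Gm22192 passed on very few reads. Snord34 stood at 4.22 and 3.63 FPKM in wild type and 1.60 and 1.67 FPKM in knockout, from 5, 4, 2 and 2 reads (log2 change -1.05, SE 0.14, limma adjusted p 0.0392). Its ratio of reads was 0.415 with an exact 95% interval of 0.093 to 1.49. Gm22192 stood at 2.09 and 2.99 against 0.660 and 0.686 FPKM, from 3, 4, 1 and 1 reads (log2 change -1.36, SE 0.22, limma adjusted p 0.0498), with a ratio of 0.267 (0.027 to 1.40). Both of these intervals, from counting error alone, hold 1. Gm25632, in the same host Prrc2b, has the same 85 bases as Gm22192, so reads of the pair cannot be told apart by sequence. It was listed at 2.09, 2.24, 1.32 and 0.686 FPKM (log2 change -0.86, limma adjusted p 0.131). The call of Snord34 was lost under 8 of 12 alternatives (adjusted p 0.0390 to 0.323) and that of Gm22192 under 10 of 12 (0.0494 to 0.248).

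**Figure D4:**
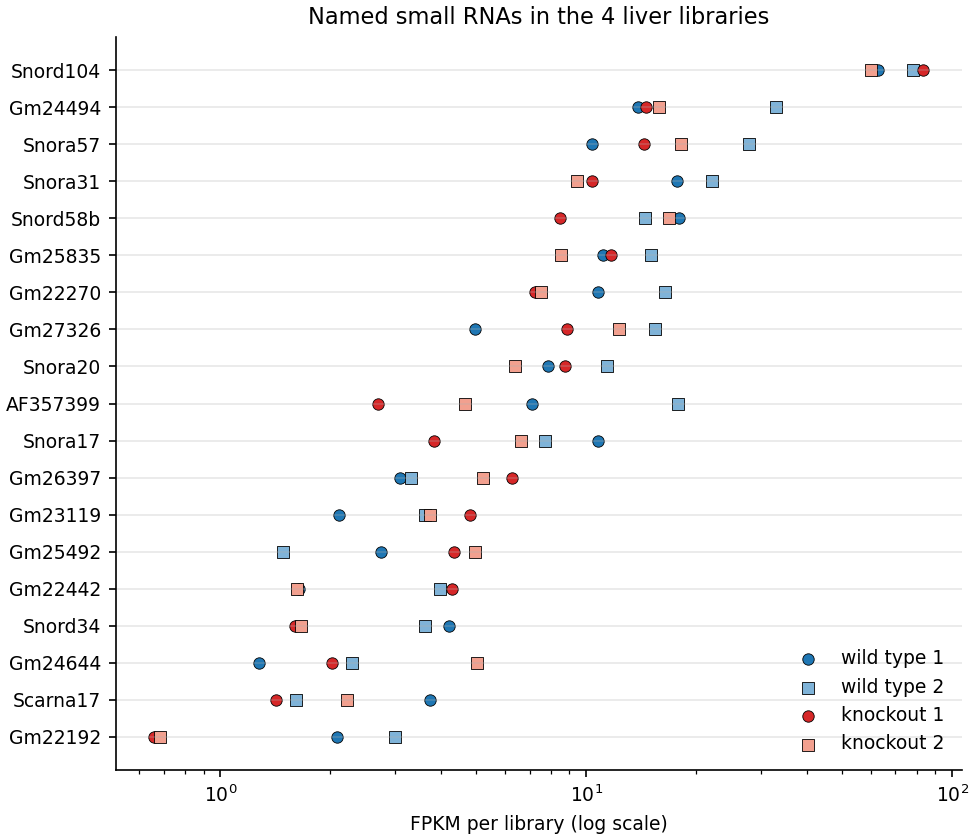
FPKM in each of the 4 libraries on a log axis for 19 small RNAs: 11 of those with the most reads, those that passed the test, those with the smallest p and the 5 scaRNAs. Snord104 lies between 60.0 and 83.3 FPKM with the groups mixed, and Snora31, Snord34 and Gm22192 have both knockout points left of both wild-type points.

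Of RNAs with neither set of letters, AF357399 and Gm27326 were the most abundant. AF357399, in the ribosomal protein gene Rps16, stood at 7.10 and 17.8 FPKM in wild type and 2.69 and 4.67 FPKM in knockout (log2 change -1.54, SE 0.49, limma adjusted p 0.137). Its groups do not overlap, though the wild-type pools lie far apart, and Rps16 stood at 255 and 242 against 246 and 238 FPKM. Gm27326, in Rpl23, stood at 4.98 and 15.4 against 8.86 and 12.3 FPKM, with the knockout pools inside the wild-type range. Gm27619, named for the lowest log2 change of the 94 after its values were seen, stood at 5.38 and 7.95 against 0 and 1.33 FPKM (log2 change -2.88, SE 0.66, limma adjusted p 0.0805). With a mean under 1 FPKM in knockout, Gm27619 was among the 13 that entered through wild type, where it is high. Its host Cep85, a centrosomal protein gene, stood at 71.9 and 88.3 against 46.2 and 45.7 FPKM (log2 change -0.79, limma adjusted p 0.0545).

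Of the 5 scaRNAs 0 passed, and 4 had a positive log2 change. Gm25492, in Bud23, a ribosomal RNA methyltransferase gene, stood at 2.75 and 1.48 FPKM in wild type and 4.35 and 4.97 FPKM in knockout (log2 change 1.02, SE 0.27, limma adjusted p 0.103). Both of its knockout pools were above both wild-type pools. Gm23119 stood at 2.11 and 3.63 against 4.81 and 3.75 FPKM (log2 change 0.53, limma adjusted p 0.275), also without overlap. Gm24644, in the F-box protein gene Fbxo3, stood at 1.28 and 2.29 against 2.02 and 5.04 FPKM, and Gm22442, in the chromatin remodeller gene Chd3, at 1.64 and 3.97 against 4.29 and 1.62 FPKM. Scarna17, on chromosome 18 near Gm23119, stood at 3.74 and 1.61 against 1.42 and 2.22 FPKM (log2 change -0.39, limma adjusted p 0.565). The groups of these last 3 overlap. Over the 5 the median log2 change was 0.53, and 1 of 5 had an unadjusted p under 0.05, against 27.1% of all tested genes. The signs rest on single libraries in 2 of them: Gm22442 moved from 0.04 to -0.49 without wild-type pool 1 and to -0.55 without knockout pool 1, and Scarna17 from -0.39 to 0.11 without wild-type pool 1. Mean reads were low, with a median of 7.0, and whether scaRNAs differ from snoRNAs was not tested.

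RNAs that share a host had log2 changes of the same sign in some hosts and of opposite sign in others. The 3 in Rpl13a, Snord32a, Snord34 and Snord35a, summed to 25 and 15 reads in wild type and 8 and 5 in knockout. Snord32a stood at 9.98 and 3.83 against 2.70 and 2.11 FPKM (log2 change -1.22, limma adjusted p 0.173). Snord35a stood at 3.94 and 4.24 against 1.25 and 0 FPKM (log2 change -2.30, limma adjusted p 0.105). With a mean under 1 FPKM in knockout, Snord35a was among the 13 that entered through wild type, where it is high. All 3, an example chosen after their values were seen, had both knockout pools below, as did 35.1% of the 94 and 29.9% of all tested genes. Their host Rpl13a stood at 12.1 and 11.4 against 11.5 and 12.8 FPKM (log2 change 0.05, limma adjusted p 0.803). In Rpl5, Gm22270 had a log2 change of -0.81 and Gm26387, 94.7% identical to it, one of 0.79. In Hspa9, a mitochondrial chaperone gene, Gm22200 had -1.25 and Gm26109 0.26, and in Kansl2 Snora2b had -1.72 and Snora34 0.99. None of these 6 passed. In Rpl17 the host stood at 179, 52.0, 191 and 155 FPKM, low in wild-type pool 2, while its 3 small RNAs took 43, 37, 24 and 41 reads.

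Few host genes passed the test. Of 70 tested hosts 1 passed (1.43%, background 4.74%): Snhg6, a noncoding gene that holds Snord87, stood at 36.2 and 33.5 FPKM in wild type and 19.5 and 21.4 FPKM in knockout (log2 change -0.76, SE 0.11, limma adjusted p 0.0433). Snord87 had only 4, 1, 0 and 3 reads. The Snhg6 call was lost under 7 of 14 alternatives, leaving out any library among them (adjusted p 0.0248 to 0.166). Both knockout pools were below both wild-type pools for 33 of the 70 hosts (47.1%, background 29.9%) and above for 10 (14.3%, background 31.6%). At an unadjusted p under 0.05, 14 were lower and 1 higher (21.4%, background 27.1%). For the 16 ribosomal protein hosts the shares below and above were 12.5% and 18.8%, and for the other 54 they were 57.4% and 13%. The 15 ribosomal protein hosts under which small RNAs were counted had a median log2 change of 0.04. The 25 small RNAs counted under them had one of -0.41, with 1 called. Leaving out each library in turn gave the 25 medians between -0.95, without wild-type pool 1, and -0.22, without wild-type pool 2. The 8 in translation factor genes had negative log2 changes with a median of -1.06 and 0 called, and wild-type pool 2 was the highest library for 7 of them. Without that pool their median was -0.35. They include Snora41 in Eef1b2 at 4.48 and 9.15 against 0.425 and 3.54 FPKM. The 8 in noncoding genes had a median of -0.88 and 0 called, and wild-type pool 2 was the highest library for 6. Their median was -0.79 without that pool, -1.24 without wild-type pool 1, -0.59 without knockout pool 1 and -0.74 without knockout pool 2. Over 89 pairs 60 RNAs had a lower log2 change than their host and 29 a higher one. The Spearman correlation of the 2 changes was 0.17 and Pearson's r 0.17 across pairs, which share libraries and in part hosts.

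**Figure D5:**
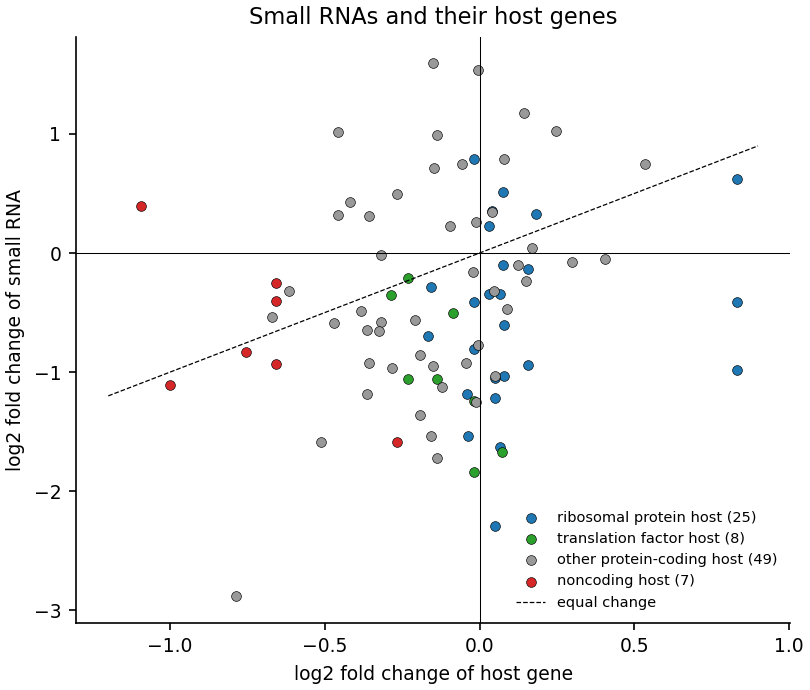
Each point is a small RNA with a tested host (89 in all), with the host's log2 change on the x axis and its own on the y axis, knockout minus wild type, coloured by kind of host, and a dashed line of equal change. Ribosomal protein hosts other than Rpl17 sit near 0 on the x axis, while the small RNAs inside them spread from -2.30 to 0.79 on the y axis. The lowest of these, Snord35a, had a mean under 1 FPKM in knockout and entered through wild type.

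Proteins that build and use these RNAs were measured with many more reads, and 0 of them passed the test. The 4 box C/D core proteins were all lower on average, with a median log2 change of -0.32. Nop58, a scaffold of the C/D particle, stood at 10.3 and 11.3 FPKM in wild type and 7.28 and 8.0 FPKM in knockout (log2 change -0.47, SE 0.11, limma adjusted p 0.0906). Nop56, its partner, had a log2 change of -0.36 (limma adjusted p 0.209). Fbl, the methyltransferase fibrillarin, had one of -0.24 (0.229), and Snu13, which binds the C/D fold, one of -0.27 (0.306). In all 4 genes both knockout pools were below both wild-type pools, as in 29.9% of all tested genes, and 1 of the 4 had an unadjusted p under 0.05, against 27.1%.

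The 4 H/ACA core genes were divided. Dkc1, the pseudouridine synthase dyskerin, stood at 11.7 and 11.1 against 8.85 and 9.07 FPKM (log2 change -0.33, limma adjusted p 0.126), and Gar1 at 26.5 and 27.1 against 19.0 and 23.1 FPKM (-0.35, 0.188). Nop10 and Nhp2 had log2 changes of 0.09 and 0.06, and their groups overlap. Among 12 assembly factors 0 passed, 11 were negative and the median was -0.23. Nufip1, an assembly adaptor, stood at 6.10 and 5.30 against 4.0 and 3.76 FPKM (log2 change -0.50, limma adjusted p 0.0937), Naf1, which loads H/ACA particles, had a log2 change of -0.42 (0.176), and Znhit3 one of 0.37 (0.141). Among 7 tested Cajal body and telomerase factors 0 passed and the median was 0.11, with Gemin2 at 0.38 (limma adjusted p 0.163) and Smn1, its partner in the SMN complex, at -0.31 (0.173). Among 11 debranching and exosome genes 0 passed and the median was -0.04, with the lariat debranching enzyme Dbr1 at 0.28 (limma adjusted p 0.412). A list of 22 snoRNA host genes, noncoding apart from Rabggtb and Nop56, had 14 tested genes, and Snhg6 alone passed. The median of the 14 was -0.35, with Snhg1 and Snhg12 both at -0.69 (limma adjusted p 0.104 and 0.125). In the order of these lists, the numbers with an unadjusted p under 0.05 were 1 of 4, 1 of 4, 3 of 12, 2 of 7, 0 of 11 and 4 of 14, against the background of 27.1%.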

How the data were processed

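Liver RNA of 2 wild-type and 2 Utx knockout pools was measured by poly(A)-selected RNA sequencing from 1 μg of RNA per library, per the labels' protocols. The values are FPKM for 54149 genes, as the authors deposited them, with coordinates and lengths of each gene per the file headers. The submitters' processing notes name HISAT2 2.0.5 and the builds mm10 and GRCm38.p6. The sources used here do not give the counting program, its use of strand or its treatment of reads that fit several genes.

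Read numbers were recovered by dividing FPKM times length by the worth of 1 read in that library, which gave whole numbers within 0.01 for 100.0% of the values above 0. They summed to 16580979 and 16669038 in wild-type and 17804730 and 16330451 in knockout pools 1 and 2. The totals implied by the deposited FPKM were 1.02, 0.943, 1.00 and 1.05 times these sums.

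log2(FPKM + 0.5) was tested for 11900 genes whose mean reached 1 FPKM, with limma 3.58.1 (lmFit, eBayes with trend) in R 4.3.3, two-sided, Benjamini-Hochberg adjusted over all of them, threshold 0.05, with 2 residual and 2.59 prior degrees of freedom. Fold changes on this scale understate those of low genes. P-values rest on the spread between pools, with each gene's variance drawn towards the trend of genes at a similar level. Those from log2(FPKM + 0.5) take no account of read numbers. The procedure was tested on simulated reads with the same extra spread between libraries for every gene, scored over all genes together. Rows of few reads were not scored apart, so it does not show how the test performs for most of these RNAs. limma voom used scaling factors by the trimmed mean of M values, coded for this work. Intervals of shares are exact binomial (Clopper-Pearson) and those of read ratios exact conditional, at 95%. Positions and sequences come from GENCODE M21 on GRCm38, in which all 94 small RNAs had the coordinates of the deposited table. The small RNAs, gene lists, tests and rule for named genes were chosen with earlier results of these data known. The rule named every small RNA past the test, the 12 with most reads, the 4 with the smallest p, every scaRNA, their hosts, Kdm6a and, per list, genes past the test or up to 4 with the smallest p. 1 small RNA that the rule takes is not reported here. Other RNAs are named as examples of a host or of a threshold and were chosen after their values were seen. Sinusoidal endothelial and erythroid markers were also tested, with 0 of 6 and 0 of 3 passing and medians of -0.24 and -0.37. Alternatives covered the pseudocount, the filter, the scaling, voom, a replicate block and leaving out each library. Figures used matplotlib 3.10.9 under Python 3.11.15.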

Additional observations from a re-analysis of the deposited data

How the results depend on the processing

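Against 3 small RNAs, 1 host, 1 gene of the fixed lists and 564 of all genes called, the counts changed as follows. With no filter on low values they were 0, 0, 0 and 0, and 4388 of 26643 genes had an unadjusted p under 0.05. With a mean of at least 5 FPKM, 1 small RNA and 2 hosts were called, and with at least 50 reads 0 small RNAs (1 tested), 4 hosts and 867 genes. Rescaling to the listed reads gave 1 small RNA, 0 hosts, 0 list genes, and a split of 211 higher and 255 lower over all genes against 190 and 374. limma voom gave 0 small RNAs, 5 hosts and 1084 genes. Pseudocounts of 0.1 and 1 kept every count within 1.5 times. Median-of-ratios factors were 1.00 in every library, so that scaling could change nothing between them.

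Leaving out each library gave 0 to 3 small RNAs, 0 to 0 hosts, 0 to 0 list genes and 0 to 234 genes. The 3 called without knockout pool 2 were other RNAs, Gm23301, Gm22748 and Gm27619, and leaving out any other library gave 0. The cause of these changes was not tested. With 1 library left in a group, it is assumed to vary like the others.

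Same-numbered pools of the 2 groups deviated with a correlation of -0.14, and the labels tie the numbers to no shared litter or day, so the pools are not taken as paired. The replicate block gave 2 small RNAs, AF357399 and Gm27619 in place of the 3, and 0 hosts, 0 list genes and 310 genes. The crossed pairing, added after seeing the data, gave 6 small RNAs, 1 host, 1 list gene and 552 genes. Snora31, Snord34, Gm22192 and Snhg6 kept their direction under each alternative in which they were tested. Depth limits most of these RNAs: 72 of 94 had under 10 reads on average.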

Other observations

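Small nuclear RNAs, the misc_RNA class and sense-intronic transcripts, summed over each whole biotype, were also lower relative to the listed reads in both knockout pools, given here as values. Small nuclear RNAs took 26.8 and 25.9 reads per 1000000 listed reads in wild-type pools 1 and 2 and 17.7 and 18.0 in knockout pools 1 and 2. The class listed as misc_RNA took 52.5 and 40.5 against 13.5 and 14.4. Sense-intronic transcripts, which lie in introns as most snoRNAs do, took 105 and 107 against 76.4 and 78.7. Genes of the miRNA class took 265 and 207 against 190 and 210, with the groups overlapping. Among tested genes the median log2 change was -0.52 for 40 small nuclear RNAs, -1.15 for 9 misc_RNA genes, -0.40 for 20 sense-intronic transcripts and -0.16 for 85 miRNA genes.

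Of the RNAs related to this family, Terc, the H/ACA-ended telomerase RNA, was listed between 0.138 and 1.06 FPKM and was not tested, and Rmrp and Rpph1 were listed at 0 in all 4 libraries. Gm24091, one of the 94, has a listed copy of identical sequence, Gm23711, with 0 reads. Among the 94 there were 9 pairs at least 80% identical, among them Gm24727 and Gm23123 (98.6%) and Gm22154 and Gm25788 (96.9%), and the deposited values do not say how their reads were divided.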
